A study of Mus musculus with 6 samples.

Results

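Antiviral interferon-stimulated genes were followed in RNA sequencing libraries of cultured mouse ovary. The set holds the regulators and effectors that type I interferon switches on, and its members were taken by gene symbol from a list of 39 genes. Of these, 37 were among the 27098 genes of the count table. Mx1 and Mx2 were matched by neither symbol nor Entrez identifier and were not analysed here. Ovaries of newborn mice, 3 days after birth, were kept for 2 h in DMEM/F12 with antibiotics, either alone (control) or with 2% platelet-rich plasma (PRP), a platelet-rich blood fraction that carries growth factors and cytokines. Each group had 3 libraries, numbered 1 to 3. The series text gives the PRP as human and thrombin-activated, so that mouse tissue received human plasma. No control with thrombin or with other plasma is named, and the sources used here state neither the mouse strain nor how many ovaries went into a library. Both groups share the culture itself, and uncultured ovary was not analysed here.

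Type I interferons bind the receptor pair IFNAR1 and IFNAR2, which activates the kinases JAK1 and TYK2. The kinases act on STAT2, which works with IRF9 in a complex that binds interferon-stimulated response elements in promoters. The genes switched on in this way sense viral RNA, block its translation, degrade it or trap new virus particles, and some of them, such as Usp18, shut the receptor down again. Many tissues keep a low tonic level of these transcripts, and resident macrophages are a common source of interferon.

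Promoters were examined for short core motifs of interferon response elements close to annotated start sites. RefSeq promoter windows of GRCm38 (GRCm38.p6), running from 250 bases before to 50 bases after a start site, matched 29 of the 37 members, in 33 windows. The core of the interferon-stimulated response element was searched on both strands as GAAA, any 2 bases, GAAA. It was present in the windows of 14 of the 29 members (48.3%), against 3.99% of the 27025 genes with a promoter in the same table. The core of the gamma-activated sequence, an element of interferon gamma responses, was searched as TTCNNNGAA, which reads the same on both strands. It was present in 7 of the 29 (24.1%) and in 9.55% of all genes of the table. Matches of the 2 motifs shared bases in Bst2 and Ifitm3. A match is a description of letters and does not show that a factor binds there. A window without a match does not show that the gene lacks the element, which may differ from this core or lie elsewhere. The 250 bases before the start site are given 5′ to 3′ on the strand of the gene for 4 effectors with response element cores, for the regulators Stat2, with a response element core, and Irf1, with a gamma-activated core, and for Irf7, whose window held neither. Capitals mark every match of either motif.

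Ifit1, chr19:34640639-34640888, plus strand: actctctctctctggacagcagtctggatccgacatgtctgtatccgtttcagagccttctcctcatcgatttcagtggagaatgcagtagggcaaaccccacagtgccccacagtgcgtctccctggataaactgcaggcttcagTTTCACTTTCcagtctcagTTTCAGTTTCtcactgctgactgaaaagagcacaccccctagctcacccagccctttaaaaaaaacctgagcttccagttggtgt
Ifit3, chr19:34583279-34583528, plus strand: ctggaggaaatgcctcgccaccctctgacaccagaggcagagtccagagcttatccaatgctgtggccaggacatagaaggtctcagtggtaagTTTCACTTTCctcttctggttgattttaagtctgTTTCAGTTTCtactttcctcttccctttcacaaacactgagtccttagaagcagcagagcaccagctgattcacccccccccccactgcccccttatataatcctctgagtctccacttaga
Isg15, chr4:156200819-156201068, minus strand: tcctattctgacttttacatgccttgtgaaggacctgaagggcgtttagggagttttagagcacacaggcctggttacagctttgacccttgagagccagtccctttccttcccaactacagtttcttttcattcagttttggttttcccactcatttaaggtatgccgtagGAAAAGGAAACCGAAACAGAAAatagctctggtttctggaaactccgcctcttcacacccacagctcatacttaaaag
Rsad2, chr12:26456453-26456702, minus strand: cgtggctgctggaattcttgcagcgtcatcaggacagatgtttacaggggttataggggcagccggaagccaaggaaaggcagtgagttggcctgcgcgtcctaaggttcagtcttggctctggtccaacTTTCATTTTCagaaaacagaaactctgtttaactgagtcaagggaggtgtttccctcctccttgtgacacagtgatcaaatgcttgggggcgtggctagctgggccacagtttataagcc
Stat2, chr10:128270248-128270497, plus strand: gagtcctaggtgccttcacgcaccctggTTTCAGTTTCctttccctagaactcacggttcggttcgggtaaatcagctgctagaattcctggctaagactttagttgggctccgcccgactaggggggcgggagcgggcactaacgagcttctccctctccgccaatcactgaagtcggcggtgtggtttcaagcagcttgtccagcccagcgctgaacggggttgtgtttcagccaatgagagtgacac
Irf1, chr11:53769764-53770013, plus strand: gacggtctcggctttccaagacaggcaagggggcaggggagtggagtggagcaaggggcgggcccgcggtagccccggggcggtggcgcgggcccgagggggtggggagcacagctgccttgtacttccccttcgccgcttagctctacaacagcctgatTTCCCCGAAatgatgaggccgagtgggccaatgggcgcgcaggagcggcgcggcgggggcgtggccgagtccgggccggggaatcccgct
Irf7, chr7:141266425-141266674, minus strand: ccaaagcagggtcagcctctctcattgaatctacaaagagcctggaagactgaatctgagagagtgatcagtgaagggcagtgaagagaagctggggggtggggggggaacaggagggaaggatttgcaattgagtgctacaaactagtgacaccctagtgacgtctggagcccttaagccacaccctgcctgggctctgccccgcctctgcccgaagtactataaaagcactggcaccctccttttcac

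The matches of Ifit1 began 104 and 85 bases before the start site and those of Ifit3 156 and 122 bases before it, all 4 on the opposite strand. Isg15 held 3 matches that overlap in a single run, beginning 78, 72 and 66 bases before the start. Rsad2 held 1, at 120 bases, and Stat2 held 1 farther out, at 222 bases. The gamma-activated core of Irf1 began 90 bases before the first of its 2 start sites, and the window of the second start site held neither motif.

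As a whole the members lay lower in PRP than in control, but not by more than the control libraries differed among themselves. The median deviation of the members from each gene's mean over all libraries was -0.01, -0.21 and 0.66 (log2) in controls 1 to 3. In PRP 1 to 3 it was -0.22, -0.24 and -0.06. The log2 fold change (PRP minus control, edgeR on counts) was below 0 in 34 of the 37 members, and their median was -0.42, where 49.6% of all 17475 genes tested were below 0 and the median of all genes was 0.00. All 37 members passed the filter on low counts. In edgeR 0 of the 37 had an adjusted p under 0.05, nor had any other gene of the table (0% called). When the replicate number entered as a block, again 0 members passed, where 0.120% of all genes did and 0.0401% passed as lower. The closest were Stat2 and Trim25, with blocked edgeR adjusted p-values of 0.0641 and 0.0843. At an unadjusted p under 0.05, which corrects for nothing, edgeR had 5 of the 37 members, all lower in PRP. They were Stat2, Eif2ak2, Dtx3l, Herc6 and Trim25. DESeq2 had 10 of the 37 members at the same unadjusted cut, beside 551 of all 17475 genes. Of all genes, 3.19% reached this in edgeR and 1.93% as lower. With the block 14 of the 37 members reached it, all lower, where 11.2% of all genes did and 5.91% as lower.

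**Figure D1:**
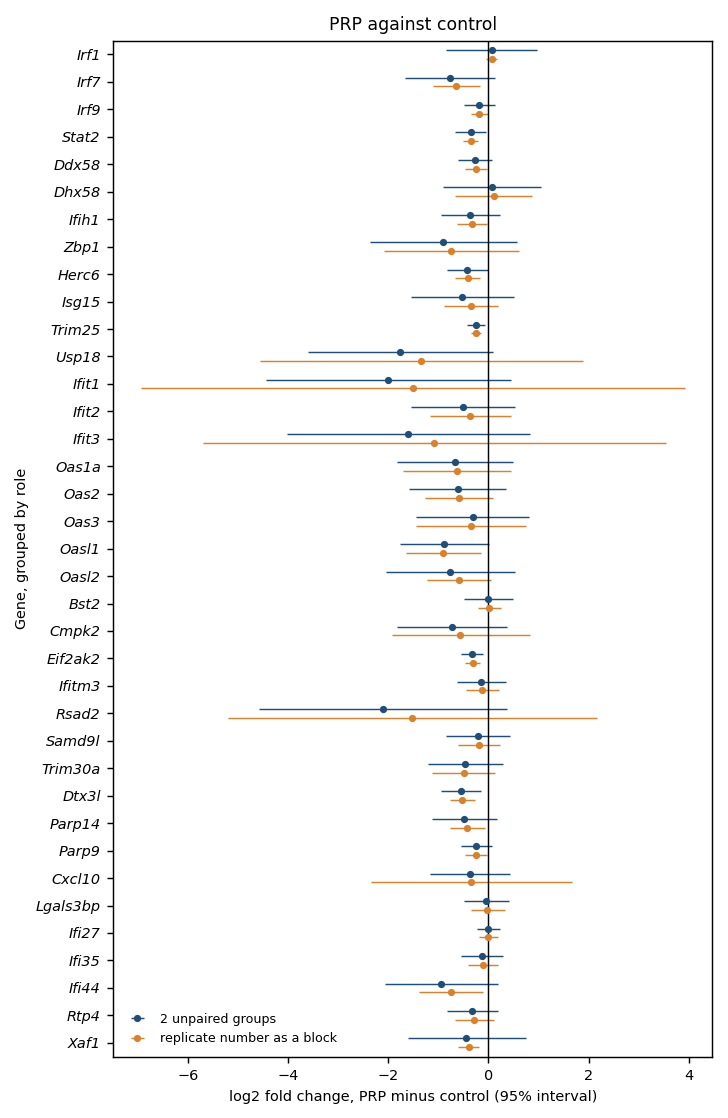
Log2 fold change of each member, PRP minus control, with its 95% interval, from the fit of 2 unpaired groups (blue) and from the blocked fit, which carries the replicate number (orange); genes are grouped by role. Intervals of Stat2, Trim25, Eif2ak2, Dtx3l and Herc6 lie below 0 in both fits, while those of Ifit1, Ifit3, Rsad2 and Usp18 are the widest of the unpaired fit.

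Much of the median difference went with a single control library. In 33 of 37 members control 3 was above the other 5 libraries, against 20.6% of all genes tested. Its level over the mean of controls 1 and 2 had a median of 1.75 over the members and 1.00 over all genes, and it passed 1.5 in 24 members against 7.67% of all genes. The exceptions, in which another library was highest, were Irf1, Oas3, Eif2ak2 and Ifi27. Without control 3 the median log2 fold change of the members was -0.09. Then 26 of 37 (70.3%) were below 0, against 48.8% of all genes tested. The summed level of the 37 members was 945, 781 and 1268 CPM (counts scaled to a common library size by TMM) in controls 1 to 3 and 891, 748 and 843 CPM in PRP 1 to 3, so that control 3 stood above 5 libraries in which the groups overlapped. These are bulk samples, in which fewer cells of a type and less RNA per cell cannot be told apart.

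**Figure D2:**
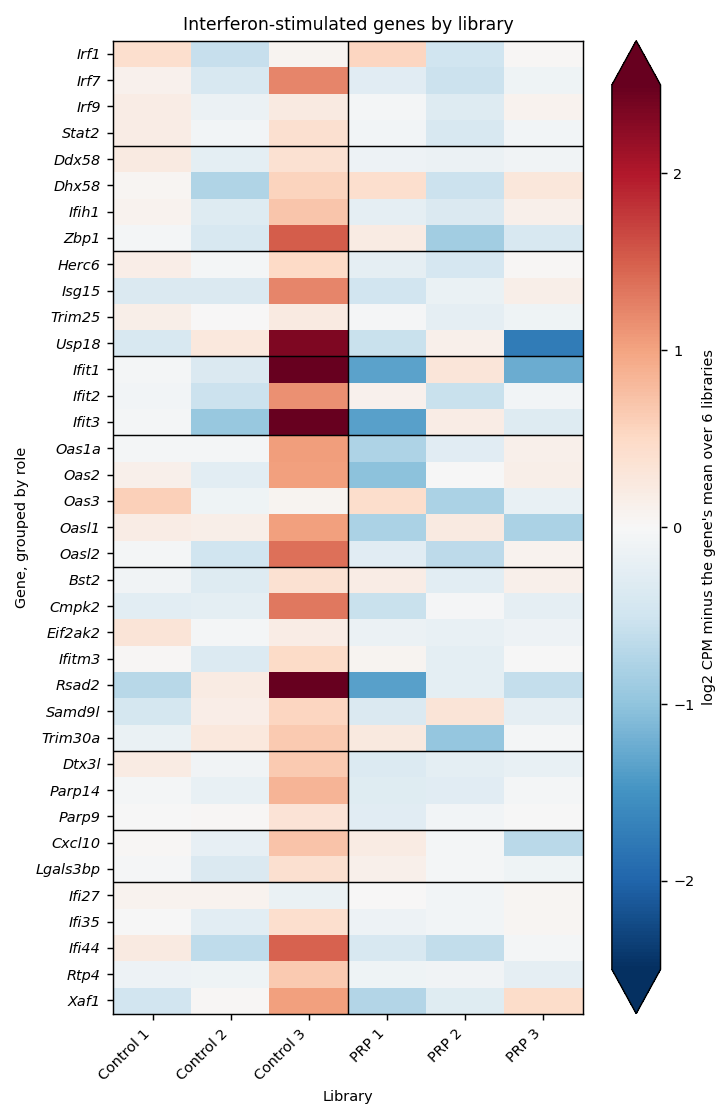
Log2 CPM of each of the 37 members in each library, minus the mean of that gene over the 6 libraries, grouped by role (regulators, sensors, ISG15 system, IFIT, OAS, other effectors, ADP-ribosylation, secreted, other); the vertical line parts control from PRP. The column of control 3 is red in nearly every row, deepest in Ifit1, Ifit3, Rsad2 and Usp18, and the other 5 columns differ less.

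The replicate numbers separated the members in the same way. Differences between a PRP library and the control of the same number had medians of -0.23, -0.04 and -0.78 (log2) for numbers 1, 2 and 3. PRP was lower in 26, 20 and 36 of the 37 members, respectively. PRP was lower in all 3 pairs in 16 of the 37 members (43.2%), against 16.3% of all genes tested, and higher in all 3 in none. The groups did not overlap, with every PRP library below every control, in 4 of the 37 members, Eif2ak2, Parp9, Dtx3l and Trim25. This held in 4.87% of all genes, and the reverse held in 0 members, against 4.34% of all genes. Without control 3, every PRP library lay below controls 1 and 2 in 5 of the 37 members. These were the same 4 and Ifi27, against 10.2% of all genes.

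**Figure D3:**
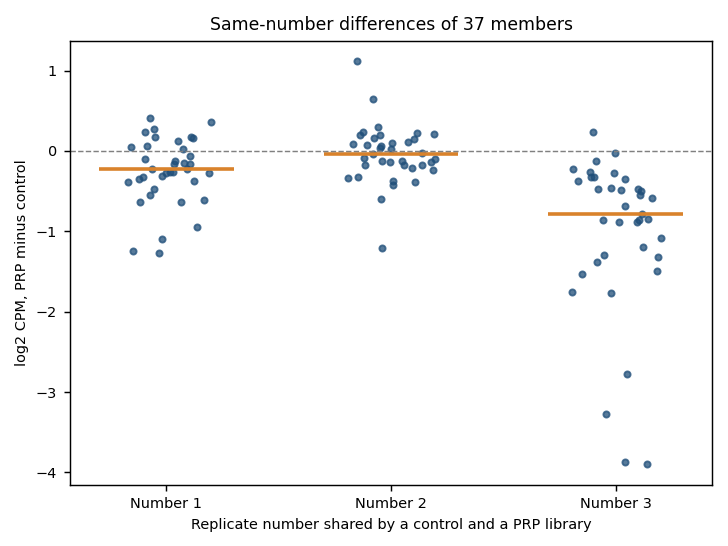
Difference in log2 CPM between the PRP and the control library of the same replicate number, 1 point per member (37 members); the orange bar is the median. Points of numbers 1 and 2 spread around medians of -0.23 and -0.04, and nearly all points of number 3 lie below 0 around -0.78.

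Among the regulators, Stat2 (chromosome 10, 128270498 to 128292853), the signal transducer of the type I receptor, had 52.6, 43.8 and 60.9 CPM in controls 1 to 3. In PRP 1 to 3 it had 44.0, 34.9 and 44.0 CPM. PRP was the lower library in each pair, although PRP 1 and PRP 3 lay just above control 2. Its log2 fold change was -0.35 ± 0.14 (SE, n = 3 per group), and -0.35 ± 0.07 with the block. Irf7 (chromosome 7, 141263183 to 141266499), the factor that amplifies interferon production, had 6.25, 4.43 and 13.5 CPM in control and 4.81, 4.0 and 5.40 CPM in PRP. Only control 3 stood out, and the fold change was -0.77 ± 0.39. Irf1 (chromosome 11, 53770014 to 53778374), a factor induced by interferon gamma and by inflammatory signals, followed the replicate number instead. It had 125, 62.2 and 97.9 CPM in control and 136, 66.4 and 95.6 CPM in PRP, with number 1 highest and number 2 lowest in both groups. Its log2 fold change was 0.06 ± 0.36, and 0.06 ± 0.05 with the block, whose 95% interval ran from -0.05 to 0.17. Irf9, the DNA-binding partner of STAT2, ranged from 29.0 to 37.3 CPM in control and from 25.6 to 34.2 CPM in PRP.

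Sensors of viral nucleic acid spanned a wide range of levels. Ddx58, which encodes the RNA sensor RIG-I, had 37.6, 26.9 and 41.6 CPM in control and 29.4, 28.8 and 30.2 CPM in PRP. The PRP libraries were close to each other and lay inside the spread of the controls, at -0.26 ± 0.15. Ifih1, the sensor of long double-stranded RNA, had 10.3, 7.72 and 15.7 CPM in control and 8.21, 7.51 and 10.5 CPM in PRP, at -0.36 ± 0.26. Zbp1, a sensor of Z-form nucleic acid that can start necroptosis, was scarce, with 14, 11 and 41 counts in control and 17, 8 and 11 in PRP. Dhx58, a modulator of both RNA sensors, was the member with the highest log2 fold change, at 0.07 ± 0.43 on 27 to 66 counts per library.

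ISG15 is a ubiquitin-like protein attached to other proteins after interferon, and its enzymes were represented by 3 members besides Isg15 itself. Isg15 had 3.04, 3.04 and 9.17 CPM in control and 2.83, 3.51 and 4.32 CPM in PRP. Usp18 (chromosome 6, 121245906 to 121270917), which removes ISG15 and blocks the interferon receptor, had 0.920, 1.45 and 6.16 CPM in control and 0.824, 1.32 and 0.360 CPM in PRP. The pairs of numbers 1 and 2 differed by -0.15 and -0.12 (log2) and the pair of number 3 by -3.90, and its fold change was -1.76 ± 0.79. Herc6, the ligase that attaches ISG15 in the mouse, had 13.6, 11.7 and 17.1 CPM in control and 10.4, 9.0 and 12.3 CPM in PRP. Its 3 pairs were alike, at -0.39, -0.37 and -0.47, and its fold change was -0.42 ± 0.18 (blocked edgeR adjusted p = 0.191). Trim25 (chromosome 11, 88999403 to 89020294), a ubiquitin ligase that activates RIG-I, was the member of most counts per library. It had 169, 155 and 179 CPM in control and 151, 131 and 142 CPM in PRP, without overlap, and its fold change was -0.24 ± 0.08.

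Of the IFIT proteins, IFIT1 binds viral RNA that lacks the cap methylation of the host. The IFIT genes lie side by side on chromosome 19, Ifit2 at 34550550 to 34576534, Ifit3 at 34583119 to 34588982 and Ifit1 at 34640889 to 34650009. Ifit1 had 2.43, 1.95 and 16.1 CPM in control and 0.989, 3.06 and 1.05 CPM in PRP. Ifit3 had 3.12, 1.67 and 18.2 CPM in control and 1.26, 3.70 and 2.60 CPM in PRP. In both genes PRP was lower for numbers 1 and 3 and higher for number 2, by 0.64 and 1.12 (log2). Their fold changes were -2.00 ± 0.99 and -1.60 ± 0.98. Without control 3 that of Ifit3 was 0.07 ± 0.47. Ifit2 had 10.2, 7.44 and 23.6 CPM in control and 11.5, 7.29 and 10.2 CPM in PRP, and numbers 1 and 2 differed little between the groups. Its fold change was -0.50 ± 0.43, and 0.14 ± 0.23 without control 3.

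The OAS enzymes make the oligoadenylates that activate RNase L, and their genes cluster on chromosome 5. Oas1a, Oas2 and Oas3 were scarce, at 0.348, 0.523 and 0.127 CPM per kilobase of exon, against 5.16 for Oasl2, and Oas3 was the member of lowest level per length. Oasl2 had 13.8, 10.1 and 36.9 CPM in control and 11.7, 9.0 and 15.1 CPM in PRP, at -0.76 ± 0.52. Oasl1, which restrains the translation of Irf7, had 2.23, 2.17 and 4.0 CPM in control and 1.13, 2.29 and 1.14 CPM in PRP, at -0.88 ± 0.39. PRP 1 and PRP 3 were at about the same low level there, while PRP 2 lay beside controls 1 and 2. Oas3 was an exception to the pattern of control 3, with 0.864, 0.529 and 0.596 CPM in control and 0.769, 0.331 and 0.499 CPM in PRP.

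Among the other antiviral effectors, Rsad2 (chromosome 12, 26442743 to 26456452), which makes a chain-terminating nucleotide, had the lowest log2 fold change of the set. It had 2.98, 5.57 and 31.2 CPM in control and 1.89, 4.11 and 3.19 CPM in PRP. Every PRP library was the lower of its pair, by 0.64, 0.43 and 3.27 on the log2 scale. The fold change was -2.11 ± 0.98, with a 95% interval from -4.58 to 0.36, and without control 3 it was -0.48. Cmpk2, its neighbour on the chromosome and the kinase that supplies its substrate, had 8.36, 8.42 and 24.9 CPM in control and 6.76, 9.77 and 8.59 CPM in PRP. Eif2ak2, which encodes the kinase PKR that stops translation, had 61.0, 46.9 and 55.6 CPM in control and 43.7, 42.7 and 44.4 CPM in PRP. Its groups did not overlap, control 1 and not control 3 was highest, and the fold change was -0.32 ± 0.10 (blocked edgeR adjusted p = 0.125). Bst2, which tethers budding virus, and Ifitm3, which blocks fusion with the endosome, had the highest levels of all members per length, at 103 and 95 CPM per kilobase of exon. Bst2 had 75.1, 64.0 and 105 CPM in control and 90.6, 66.9 and 87.0 CPM in PRP, at 0.00 ± 0.20 (95% interval -0.48 to 0.48). Ifitm3 had 64.5, 49.8 and 88.8 CPM in control and 66.6, 53.8 and 63.1 CPM in PRP, at -0.15 ± 0.20. In both, number 2 was lowest in each group. Samd9l, a translation inhibitor, was at -0.21 ± 0.27 and Trim30a, a negative regulator of inflammatory signalling, at -0.46 ± 0.33.

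Parp14, Parp9 and Dtx3l encode ADP-ribosyltransferases and a ubiquitin ligase that works with PARP9, and lie together on chromosome 16 between 35831892 and 35972621. Dtx3l had 28.5, 23.1 and 38.9 CPM in control and 19.4, 20.9 and 21.6 CPM in PRP. The groups did not overlap, and the fold change was -0.55 ± 0.17 (blocked -0.52 ± 0.12, edgeR adjusted p = 0.139). Parp9, whose span overlaps that of Dtx3l, had 19.0, 19.6 and 24.2 CPM in control and 15.7, 18.3 and 18.9 CPM in PRP. Its fold change was -0.25 ± 0.13. Parp14 had 27.5, 25 and 51.3 CPM in control and 23, 23.5 and 27.6 CPM in PRP, so that it overlapped through PRP 3. Its fold change was -0.49 ± 0.27. All 3 genes were lower in PRP in every pair.

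Of the secreted products, Cxcl10, a chemokine for activated T cells, had 69.7, 59.3 and 113 CPM in control and 78.7, 66.0 and 43.3 CPM in PRP. PRP was higher for numbers 1 and 2, by 0.17 and 0.15 (log2), and lower for number 3, by 1.38, where control 3 was the highest and PRP 3 the lowest library of all. The fold change was -0.36 ± 0.32. Lgals3bp, a secreted scavenger-receptor glycoprotein, had 9.81, 7.83 and 13.2 CPM in control and 11.0, 9.66 and 9.33 CPM in PRP. Its fold change was -0.04 ± 0.20.

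Among the remaining members, Xaf1, a proapoptotic protein, followed both the number and the group. It had 13.5, 19.2 and 37.9 CPM in control and 11.2, 15.1 and 25.8 CPM in PRP, with the order of numbers the same in both groups and PRP lower in each pair. Its fold change was -0.44 ± 0.48 unpaired and -0.39 ± 0.10 with the block (edgeR adjusted p = 0.153). Ifi44 had 2.70, 1.48 and 6.39 CPM in control and 1.76, 1.52 and 2.24 CPM in PRP, at -0.94 ± 0.49. Ifi27, a mitochondrial and nuclear-envelope protein, had 34.1, 34.5 and 28.6 CPM in control and 32.7, 30.6 and 33.5 CPM in PRP. Its 95% interval ran from -0.23 to 0.22, and control 3 was its lowest library. Ifi35, a regulator of innate signalling, was at -0.13 ± 0.18 and Rtp4, a Golgi chaperone of receptors, at -0.33 ± 0.22.

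How far control 3 stood out was set beside the level of each gene and its promoter motif. Over the 37 members the ratio of control 3 to controls 1 and 2 had a Spearman correlation of -0.55 with the mean level per kilobase in the PRP libraries, which share no library with the ratio. The 12 members of lowest level had a median ratio of 2.59 and the 12 of highest level one of 1.28. Members share libraries and many share regulators, so this is a description. The 14 members with a match of the response element core had a median ratio of 1.65. The 15 with a window but no match in it had one of 1.57. Ranges were 0.856 to 7.59 and 1.05 to 3.09, so that the 3 highest ratios with a known promoter, those of Ifit3, Ifit1 and Rsad2, all belonged to members with a match. Oas3 and Eif2ak2, also with a match, had ratios of 0.856 and 1.03.

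Of the 10 receptor and signal transduction genes of the pathway, none passed in either edgeR fit, and 8 of their log2 fold changes were below 0, with a median of -0.10. Ifnar1 had 179, 181 and 186 CPM in control and 183, 197 and 172 CPM in PRP, and Ifnar2 ranged from 47.4 to 64.4 CPM over the 6 libraries. The kinase genes Jak1 and Tyk2 were at -0.02 ± 0.08 and -0.05 ± 0.08. Jak2, a kinase of the interferon gamma receptor, had 239, 251 and 276 CPM in control and 220, 236 and 238 CPM in PRP. Its groups did not overlap, and it was at -0.14 ± 0.05 with the block (edgeR adjusted p = 0.245). Ifnlr1, the receptor chain for interferon lambda, was scarce, at 0.911 to 2.19 CPM with control 3 highest, and its fold change was -0.34 ± 0.42. Both were named after their values were seen. Of the 17 upstream sensors and adaptors, 16 could be tested and none passed. Mavs, the adaptor of RIG-I, was at -0.15 ± 0.08, and Irf3, the factor it activates, was at 0.00 ± 0.06. None of the 11 negative regulators tested passed either.

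The few interferon genes present among the counted genes gave almost no reads. Of 21 ligand genes looked for, 4 were in the table, namely Ifnl2, Ifna9, Ifna12 and Ifnab, and the others were not analysed here. These 4 had between 0 and 4 counts in any library. Control 3 had 1 count in Ifnab and 0 in the other 3. A count of 0 allows up to 3 counts, or 0.0852 CPM in control 3.

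The neighbouring interferon-regulated and inflammatory groups did not all share the pattern. Interferon-inducible GTPases, mostly targets of interferon gamma, had a median log2 fold change of -0.36, with 15 of 16 below 0, and a median ratio of control 3 to controls 1 and 2 of 1.72. With the block 1 of the 16 passed, Iigp1, at -0.59 ± 0.09 (edgeR adjusted p = 0.0331), where 0.120% of all genes were called and 0.0401% as lower. It had 57.6, 24.9 and 68.9 CPM in control and 35.2, 20.8 and 40.2 CPM in PRP. MHC class I and antigen-processing genes had a median fold change of 0.01 with 6 of 14 below 0, although their median ratio was 1.53. Their summed level was 940 CPM in control 3 and 496 to 779 CPM in the other libraries. Inflammatory NF-kB targets had a median log2 fold change of -0.19, with 14 of 17 below 0, and a median ratio of 1.33. In control 3, 11 of the 17 were highest, as were 11 of the 16 GTPases and 9 of the 14 MHC class I genes. The difference between these groups and the antiviral members was not tested.

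**Figure D4:**
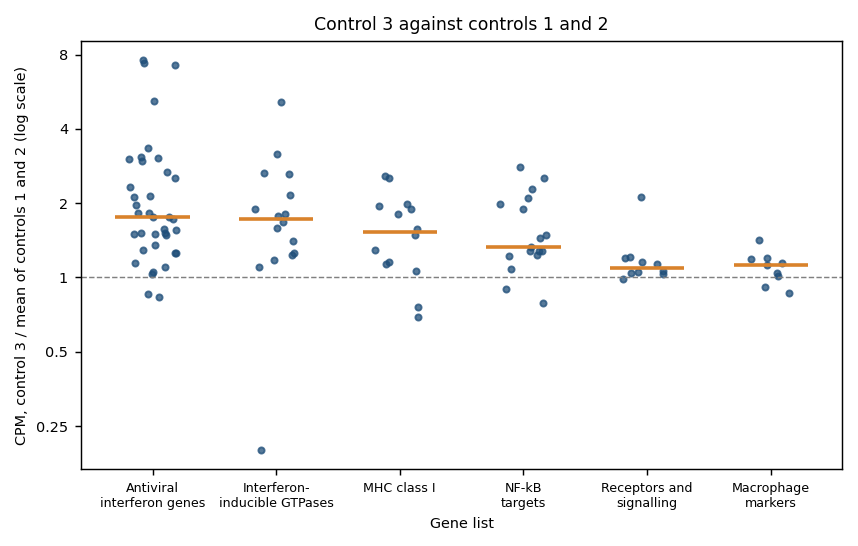
CPM of control 3 divided by the mean of controls 1 and 2 (log scale), 1 point per tested gene, for the 37 antiviral members and 5 other gene lists; orange bars are medians. The members reach 7.59 and have a median of 1.75, close to the 1.72 of the GTPases. MHC class I genes and NF-kB targets have medians of 1.53 and 1.33. Receptors and signalling genes and macrophage markers lie near 1, at 1.09 and 1.12.

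Markers of other cells also differed in control 3, and their part in the result was not tested. All 7 erythroid genes tested of 11 were highest in control 3, with a median ratio of 15.4, and the summed level of the 11 was 1621 CPM there against 109 to 226 CPM in the other libraries. The neutrophil alarmins S100a8 and S100a9 had 10.6 and 15.0 CPM in control 3 and at most 0.585 and 1.70 CPM elsewhere. The neutrophil list summed to 29.8 CPM in control 3 and to between 2.15 and 3.12 CPM in the others. Macrophage markers, by contrast, summed to 82.6 CPM in control 3 and to 70.1 to 85.8 CPM elsewhere, and none of the 9 tested had a ratio above 1.5. The 5 general leukocyte genes summed to 28.6 CPM in control 3 and to 18.9 to 25.7 CPM elsewhere. Of the plasmacytoid dendritic cell markers, whose cells are specialised interferon producers, Siglech was at 0 counts in control 3 and at most 0.192 CPM elsewhere. Spib of the same list went the other way, with 34 counts (0.965 CPM) in control 3 and 1 to 12 counts elsewhere. The list of 7 summed to 2.70 CPM in control 3 and to 0.859 to 3.23 CPM in the others. Klk1 of that list was at 0 in all libraries but control 2, and Cd8a of the lymphocyte list was at 0 in control 3.

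The genes outside the set with the profile most like that of the members came from several functions. Over the 6 libraries the mean z-score of the members correlated best, among 14801 genes of at least 1 CPM, with Dhrs11 (Pearson r = 0.995), a dehydrogenase, Mfsd2b (0.994), a sphingosine phosphate exporter of red cells and platelets, Syne2 (0.992), a nuclear envelope protein, and Sesn2 (0.99), a stress-response regulator. They were followed by Lin9, Plxna2, Sntb2, Ttc7, Recql5 and Cstdc5, with r from 0.984 to 0.978. With 6 points, of which control 3 is the far one, 57 genes had r above 0.95. Mfsd2b had 10.7 CPM in control 3 and at most 3.01 CPM elsewhere, whereas Syne2 had 532 CPM there and 445 to 464 CPM elsewhere.

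Library totals ran from 35568000 to 36568367 counts. Markers of the labelled tissue were present in all libraries, with granulosa genes summing to 719 to 882 CPM and oocyte genes to 1373 to 2181 CPM. Nothing in the labels says whether the replicates are separate cultures or animals, so the p-values measure the spread between these libraries, which may be technical. The spans of 13 members overlap another gene of the table (Ifit1, Isg15, Usp18, Stat2, Cxcl10, Ifih1, Dhx58, Eif2ak2, Parp9, Dtx3l, Rtp4, Trim25 and Ifi27). Ifit1, Ifit3, Oas1a and Trim30a also have close gene copies. The counts of these genes are uncertain to that extent, since the strand setting and the handling of shared reads are not stated in the sources used here.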

How the data were processed

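Messenger RNA was sequenced in 6 libraries of mouse ovary (3 control, 3 PRP). The authors deposited the raw count of each gene in 1 table. The build was GRCm38 (mm10), per the submitters' processing notes; aligner, counter, strand setting and annotation: not given in the sources used here. The column for PRP 3 has the letters of its title in another order.

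Tests of PRP against control used edgeR 4.0.16 (R 4.3.3): filterByExpr at a minimum count of 10, TMM scaling and a robust quasi-likelihood F test over 17475 genes. P-values are two-sided and Benjamini-Hochberg adjusted over all of them at 0.05. CPM use TMM library sizes. Exon lengths are from GENCODE, coordinates and promoters from RefSeq (GRCm38). The fits were tested on simulated data that held no replicate effect and had changes only in well-counted genes. This did not cover members of few counts or a single outlying library. Alternatives were DESeq2 1.42.0, limma-voom 3.58.1, other scaling and filters, and leaving out libraries.

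Same-number libraries correlated at 0.24, 0.40 and 0.33 in their deviations from the group means and all others at -0.02 or below. Deviations cancel within a group, so positive same-number values push the others down, and those are no separate sign of pairing. The numbers were taken to pair the libraries from these same data and no label, so the blocked fits rest on that choice. The members, lists, tests and alternatives were chosen with earlier results of these data known. By rule, every library's value was given for the 2 members of highest mean CPM and the one of largest fold change in each role; Isg15, Cmpk2, Eif2ak2, Parp9 and Oas3 were added after their values were seen. A gene of the pathway is not reported here.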

Additional observations from a re-analysis of the deposited data

How the results depend on the processing

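In edgeR without the block, 0 of 17475 genes were called, with 557 at an unadjusted p under 0.05, and DESeq2 and limma-voom called 0, with 551 and 564. The fit with the replicate block called 21 genes, and 1 to 19 when both libraries of a number were left out. Over these alternatives 0 members were called, and the block, with the numbers taken as pairs, changed no member's call. The median log2 fold change of the members ran from -0.54 (without control 2) to -0.09 (without control 3), and the number below 0 from 26 (without control 3, or blocked without number 3) to 37 (without PRP 1). With all libraries kept, none of 191 values of the 24 members named by rule changed sign. With libraries left out, unpaired or blocked, 23 of 216 did, and these were in 9 members, none of which had passed: Bst2 ran from -0.14 to 0.23, Ifi27 from -0.11 to 0.08, Irf1 from -0.23 to 0.31, Ifit2 from -0.80 to 0.14, Ifit3 from -2.16 to 0.07, Ifitm3 from -0.32 to 0.10, Cxcl10 from -0.61 to 0.16, Lgals3bp from -0.20 to 0.23 and Xaf1 from -0.84 to 0.09. Unpaired, the lowest value of Ifit3 was -2.08 (without control 2) and the highest of Lgals3bp 0.18 (without control 3); blocked without number 1, Ifi27 was at 0.03. The causes were not tested. Scaled by library totals alone, the only other scaling run for this count and chosen after seeing the data, 33 members were again highest in control 3. The count of members with no overlap was 4, and 5 without control 3, also chosen after seeing the data. Members under 1 CPM rest on few counts, and their differences were not detectable at this depth unless large.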
